A study of Mus musculus with 8 samples.

Results

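Genes of the Wnt pathway's outer layer were followed in islet RNA: the Wnt ligands, their Frizzled receptors and Lrp co-receptors, the secreted antagonists of the Sfrp and Dickkopf families, the R-spondins with their Lgr receptors, and, inside the cell, the Axins and the TCF/LEF factors. Members were taken by symbol alone, and 53 of the 24091 genes in the count table carry such a symbol. Of these, 36 had enough counts to be tested, among 15233 genes tested in all. The 53 comprise 19 Wnt ligands, 10 Frizzled genes, the 2 co-receptors *Lrp5* and *Lrp6*, 4 Sfrp genes, 5 Dickkopf genes (counting the Dickkopf-like gene *Dkkl1*), 7 R-spondin and Lgr genes, 2 Axins and 4 TCF/LEF genes.

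Secreted Wnt proteins bind a Frizzled receptor at the cell surface. Together with Lrp5 or Lrp6 this can halt the destruction of β-catenin, which Axin scaffolds, so that β-catenin enters the nucleus and acts with TCF/LEF factors; other Wnt and Frizzled combinations act on cell polarity and the cytoskeleton without β-catenin. Sfrp proteins capture Wnts, most Dickkopf proteins block Lrp5 and Lrp6, and R-spondins bound to Lgr4, Lgr5 or Lgr6 keep Frizzleds on the membrane. In the pancreas Wnt signalling is known for its part in the growth of the organ, and in islets for work on β-cell maturation and on the diabetes risk gene *Tcf7l2*.

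RNA-seq libraries came from islets of 6-week-old mice on the C57BL/6 background, 4 labelled wild-type (control) and 4 labelled Ngn3-Cre, itgb1-/- (mutant). *Itgb1* encodes integrin β1, and Ngn3-Cre removes it in endocrine progenitors and their descendants, so that ductal, stromal, endothelial and acinar cells caught with an islet still carry the gene. Each library was made from 10 to 30 islets. The series calls the 4 per genotype biological replicates without saying whether 1 mouse gave each, and the p-values below cover only the spread from library to library, part of which may be technical. Whether the wild-type mice carried Cre is not given in the labels. Levels are given in CPM, the count of a gene scaled for library size and composition (TMM), and, between genes, in CPM per kb of gene length.

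*Itgb1* itself stood at 422, 432, 408 and 315 CPM in controls 1 to 4 and at 266, 225, 193 and 255 CPM in mutants 1 to 4, with no overlap; permuting CPM exactly gave a two-sided p of 0.0286, which is as low as 4 libraries against 4 can go. Its log2 fold change of -0.75 (SE 0.15) had an adjusted p of 0.256 in edgeR's quasi-likelihood test and 0.00123 in DESeq2. Depth was 35.1 to 67.6 M counts per library, and 3 libraries stood apart with over 50 M: control 2, control 3 and mutant 3. Markers of β-cells summed to 120693 CPM in control 2 and 173273 CPM in control 3, against 31735 to 49376 CPM in the other 6 libraries, and acinar markers to 4075 and 12823 CPM against 34.8 to 904 CPM. Mutant 3, at 49376 and 149 CPM, was unlike controls 2 and 3 in these markers. The division by depth therefore does not adjust for this difference in full. Results are also given with a term for that division, within the 5 smaller libraries and, for some genes, without controls 2 and 3. In whole islets, fewer cells of a type and less RNA per cell cannot be told apart.

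Among the members, *Wnt4* had the highest mean per kb in both genotypes, at 65.7 ± 24.3 CPM per kb (SD, n = 4) in controls and 31.5 ± 18.6 CPM per kb in mutants. In mutants this rested on mutant 3 (59.1 CPM per kb), since *Axin1* was above *Wnt4* in mutants 1, 2 and 4. In every control *Wnt4* was above *Axin1*. Over all 8 libraries *Wnt4* was followed by *Axin1* (mean 29.1 CPM per kb), *Lrp6* (18.8), *Sfrp5* (17.7), *Rspo4* (15.0) and *Lrp5* (13.1), and the lowest tested member was *Lef1* (0.0401 CPM per kb). Over both genotypes together, neighbours such as these did not differ beyond their spread over libraries. *Wnt4* spanned 19.9 to 99.4 CPM per kb and *Axin1* 25.7 to 34.5. *Lrp6* spanned 14.8 to 20.5 and *Sfrp5* 5.41 to 49.6, and *Fzd3* 6.41 to 9.22 and *Lgr4* 6.44 to 9.87. These islets thus held RNA of a single abundant ligand, of several Frizzleds with overlapping levels, and of both co-receptors.

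**Figure D1:**
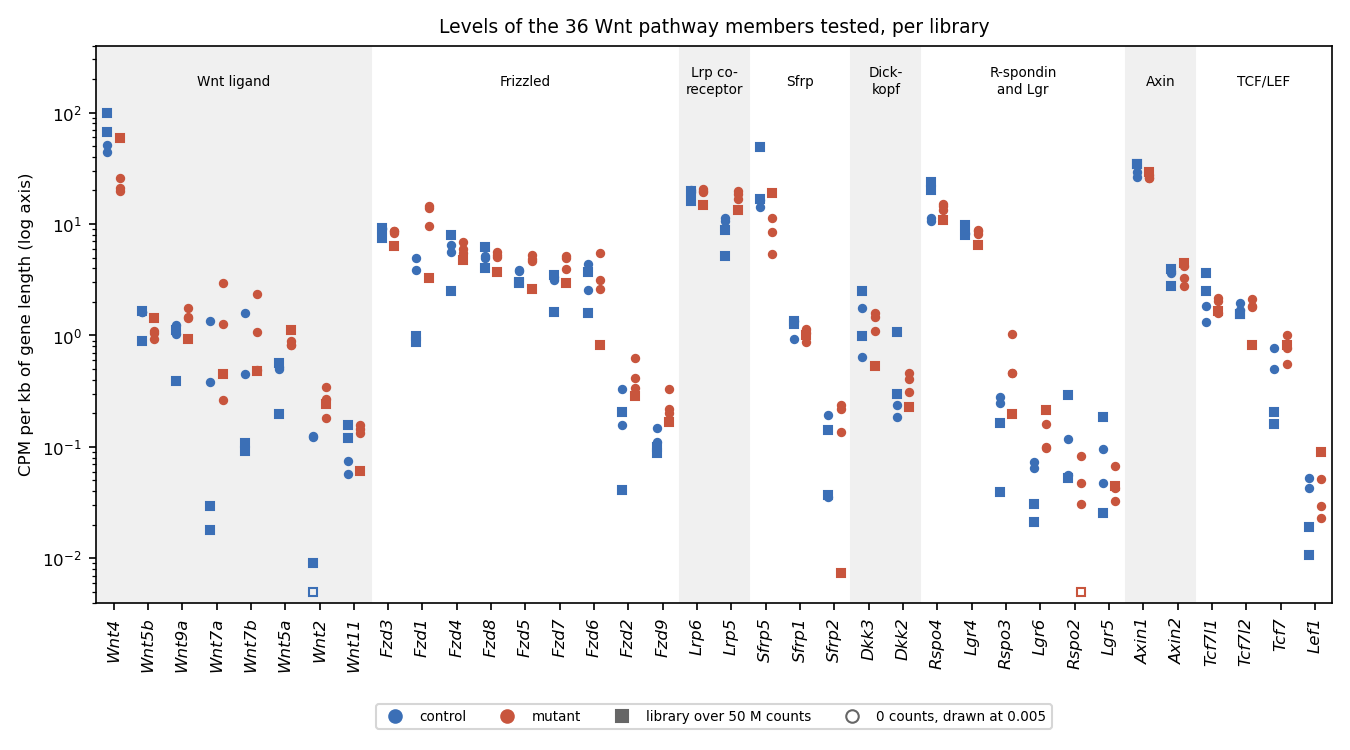
Level of each tested member in every library, in CPM per kb of gene length on a log axis, grouped by role and ordered by mean; blue points are controls, red points mutants, squares the 3 libraries of over 50 M counts, and open symbols libraries with 0 counts. *Wnt4* lies between 19.9 and 99.4 CPM per kb, above every other ligand in each library, and the *Lrp5* points of the mutants lie above those of the controls.

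Across the 36 tested members, 0 passed an adjusted p of 0.05 in edgeR's quasi-likelihood test with genotype as the only term, as did 0 of all 15233 genes (0%), and the lowest adjusted p of a member was 0.353. At an unadjusted p below 0.05, 7 members were higher in mutants and 1 lower, that is *Fzd1*, *Fzd9*, *Lgr6*, *Lrp5*, *Rspo3*, *Wnt2* and *Wnt5a* against *Wnt4*; over all genes these shares were 6.4% higher and 6.89% lower. The median log2 fold change of the members was 0.05, beside 0.0015 over all genes, with 19 means higher and 17 lower. Scaling by total counts alone moved the median of all genes to 0.15 and that of the members to 0.19, and the split of the members to 25 higher and 11 lower. DESeq2 called 1 member higher, *Lrp5*, where it called 1.22% of 15208 genes higher, and 0 members lower, where it called 0.835% lower; at an unadjusted p below 0.05 DESeq2 had 8 higher and 2 lower, beside 8.03% and 8.74% of all genes. With a term for the library division edgeR called 1 member, *Fzd1*, and 7 genes in all (0.046%). Within the 5 smaller libraries it called 0 members and 21 genes (0.138%), with a lowest adjusted p of 0.0679 among members, and without adjustment 10 members passed 0.05 as higher and 3 as lower, beside 12.8% and 10.6% of all genes. Every mutant value exceeded every control value for 5 members, *Fzd9*, *Lgr6*, *Lrp5*, *Wnt2* and *Wnt5a* (4.4% of all genes did so), and the reverse held for 0 members (3.8% of all genes).

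**Figure D2:**
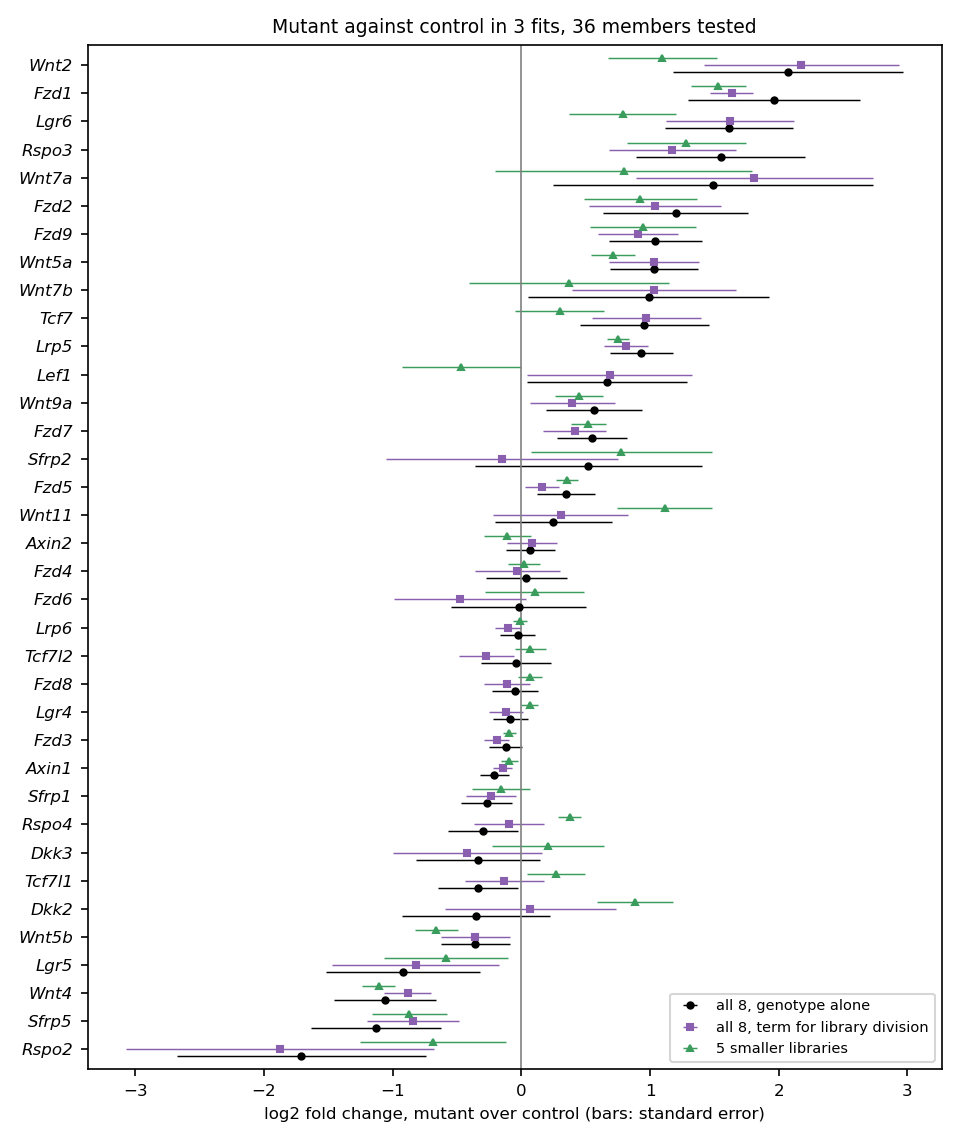
Log2 fold change of mutant over control for the 36 tested members, ordered by the fit over all 8 libraries with genotype alone (black circles); purple squares show the fit with a term for the library division and green triangles the 5 smaller libraries, with bars of 1 standard error. *Fzd1* stays between 1.53 and 1.96 and *Wnt4* between -1.11 and -0.88 across the 3 fits, whereas *Lef1*, *Dkk2*, *Dkk3* and *Rspo4* are among those that lie on opposite sides of 0 in different fits.

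Promoter sequence was available from RefSeq (GRCm38.p6) for 35 of the 53 members, but not for *Lrp5* or *Lrp6*. The 250 bases before the transcription start are shown for a ligand, an antagonist and a pair of Frizzled receptors. The ligand is *Wnt4* (chr4:137277385-137277634, plus strand), the antagonist *Sfrp5* (chr19:42202253-42202502, minus strand), and the receptors *Fzd1* (chr5:4758217-4758466, minus strand) and *Fzd9* (chr5:135251048-135251297, minus strand). Each is written 5′ to 3′ along its gene's strand. Capitals mark the GC box GGGCGG (or its reverse complement CCGCCC) and, in *Fzd9*, the hypoxia response core ACGTG (or CACGT).
Wnt4: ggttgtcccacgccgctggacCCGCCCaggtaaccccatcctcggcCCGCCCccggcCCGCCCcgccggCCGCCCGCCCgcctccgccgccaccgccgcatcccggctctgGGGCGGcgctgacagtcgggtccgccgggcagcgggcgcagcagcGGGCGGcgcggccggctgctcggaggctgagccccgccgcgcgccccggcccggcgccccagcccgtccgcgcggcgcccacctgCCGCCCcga
Sfrp5: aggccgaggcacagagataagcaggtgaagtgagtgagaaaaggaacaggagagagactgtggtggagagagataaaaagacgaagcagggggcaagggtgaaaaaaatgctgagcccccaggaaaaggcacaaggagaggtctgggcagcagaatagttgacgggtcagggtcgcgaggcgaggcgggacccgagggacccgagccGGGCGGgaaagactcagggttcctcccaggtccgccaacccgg
Fzd1: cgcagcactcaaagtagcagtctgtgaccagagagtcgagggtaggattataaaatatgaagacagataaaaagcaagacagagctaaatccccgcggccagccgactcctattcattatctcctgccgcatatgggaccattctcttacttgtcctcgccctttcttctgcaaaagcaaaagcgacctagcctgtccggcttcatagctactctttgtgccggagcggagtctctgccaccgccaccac
Fzd9: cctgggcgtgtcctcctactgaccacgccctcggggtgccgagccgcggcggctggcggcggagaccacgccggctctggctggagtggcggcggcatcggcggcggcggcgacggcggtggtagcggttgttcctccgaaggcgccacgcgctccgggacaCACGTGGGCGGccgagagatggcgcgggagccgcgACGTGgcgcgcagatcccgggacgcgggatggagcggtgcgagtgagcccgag
These windows differ in composition, from 85.2% G and C with 8 GC boxes in *Wnt4* to 51.2% with none in *Fzd1*; *Sfrp5* has 59.6% and 1 GC box, 43 bases before the start. *Fzd9* has 76.4% G and C, 3 matches to ACGTG and 1 GC box; the matches 88 and 87 bases before the start are the same CACGTG read on either strand, its last base is shared with the GC box that begins 83 bases before the start, and the remaining match begins at 53. The TCF/LEF words CTTTGAT and CTTTGTT, searched on both strands, were in none of the 4 windows. Of the 22 tested members with a promoter, 4 held a TCF/LEF word (*Fzd7*, *Tcf7l2*, *Wnt11* and *Wnt5b*), 7 held ACGTG and 19 held a GC box, in at least 1 promoter. By promoter these were 4, 7 and 23 of 30, beside 8.06%, 16.6% and 32.7% of the 32851 promoters of the table. Matches are a description of the letters and not binding sites, and the motifs were chosen with results in view.

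*Wnt4*, a ligand that marks mature β-cells in mouse islets, was lower in mutants on average. It stood at 171, 257, 379 and 196 CPM in controls 1 to 4 and at 76.1, 99.1, 226 and 80.9 CPM in mutants 1 to 4. The mutants other than mutant 3 lay below every control, while mutant 3, from a library of over 50 M counts, lay among the controls. A log2 fold change of -1.06 (SE 0.40) had an unadjusted p of 0.0268 and an adjusted p of 0.353 in edgeR, and 0.132 in DESeq2 (exact two-sided permutation test of CPM, p = 0.0857). In the fit with the library division it was -0.88 (unadjusted p = 0.00143, adjusted 0.143), and within the 5 smaller libraries -1.11 (unadjusted p = 0.000161, adjusted 0.0679). Over all 8 libraries the median log2 fold change was -1.17 for 9 β-cell markers, all with a lower mean in mutants. It was -1.18 for 6 α-cell markers, likewise all lower. In the 5 smaller libraries these medians were 0.06 and -0.54. For 4 δ-cell markers the medians were -0.95 over all 8 libraries and -0.69 in the 5 smaller ones. For 2 pancreatic polypeptide cell markers they were -0.26 and -0.79. Their part in the *Wnt4* values was not tested. Leaving out control 2, control 3, mutant 1, mutant 2 or mutant 4 took the unadjusted p above 0.05 (0.0519 to 0.0792). Without controls 2 and 3 together the estimate was -0.61 (edgeR, unadjusted p = 0.229, adjusted 0.739). *Wnt4* made up 87 to 96.9% of the summed CPM per kb of the 19 ligands in controls and 67.4 to 92.5% in mutants, and that sum was 70 ± 23.1 in controls and 37.9 ± 17.4 CPM per kb in mutants (SD, n = 4).

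The other 7 tested ligands reached at most 2.96 CPM per kb in any library. *Wnt5a*, which mostly signals without β-catenin and is made by mesenchyme in many organs, stood at 2.18, 0.853, 2.45 and 2.29 CPM in controls 1 to 4 and at 3.89, 3.56, 4.87 and 3.56 CPM in mutants 1 to 4. The groups did not overlap (exact two-sided permutation test, p = 0.0286), and the log2 fold change of 1.03 (SE 0.34) had an adjusted p of 0.353 in edgeR and 0.0966 in DESeq2. Its size within the 5 smaller libraries was 0.71 (unadjusted p = 0.00646, adjusted 0.109). *Wnt2*, a β-catenin-activating ligand of lung and other mesenchyme, was near the detection limit in controls, at 0.259, 0, 0.019 and 0.262 CPM (10, 0, 1 and 11 counts), and stood at 0.565, 0.385, 0.517 and 0.735 CPM in mutants. The groups did not overlap here either (permutation p = 0.0286, exact), and the log2 fold change of 2.07 (SE 0.90) was an estimate from few counts, with an unadjusted p of 0.0471 and an adjusted p of 0.371 in edgeR. That unadjusted p was above 0.05 without control 2, control 3 or any of the 4 mutants (0.0548 to 0.097), and the estimate in the 5 smaller libraries was 1.10.

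As a sum, stromal markers (fibroblast, stellate cell and pericyte genes) were higher in mutants alongside *Wnt5a* and *Wnt2*, with 11 means higher and 1 lower. Their summed level was 340 to 510 CPM in controls and 792 to 932 CPM in mutants, 10 of the 12 were higher at an unadjusted p below 0.05 in edgeR (6.4% of all genes), and their median log2 fold change was 1.36, or 1.27 within the 5 smaller libraries. None of the 12 was at 0 in any library. Control 3 had the highest sum among controls (510 CPM) with *Wnt2* at 0.019 CPM, and control 4 the lowest (340 CPM) with *Wnt2* at 0.262 CPM. Mutant 4 had the highest sum (932 CPM) and the highest *Wnt2* (0.735 CPM). The part of stromal cells in the values of *Wnt5a* and *Wnt2* was not tested.

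*Wnt7a* and *Wnt7b*, ligands of epithelia, are given in full after their values were seen, because they varied widely within each genotype. *Wnt7a* stood at 4.26, 0.0928, 0.057 and 1.22 CPM in controls and 9.38, 0.842, 1.43 and 4.01 CPM in mutants. *Wnt7b* stood at 6.98, 0.408, 0.475 and 1.98 CPM in controls and 10.5, 2.17, 2.11 and 4.74 CPM in mutants. Control 1 and mutant 1 were the highest of their groups for both genes, and the groups overlapped, with log2 fold changes of 1.49 (SE 1.24) and 0.99 (SE 0.94) and adjusted p of 0.58 and 0.625 in edgeR. Control 1 and mutant 1 were also the highest of their groups in the summed level of 9 ductal markers, at 1886 CPM (other controls 788 to 1239) and 3348 CPM (other mutants 1332 to 2152). The part of ductal cells in these ligands was not tested. The spans of *Wnt7b* and AU022754, and those of *Wnt5b* and *Fbxl14*, overlap on opposite strands. Reads there cannot be assigned by strand, since counting was not stated to use it.

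Of the remaining tested ligands, *Wnt9a* had a mean of 3.13 ± 1.25 CPM in controls and 4.63 ± 1.16 in mutants, *Wnt5b* 3.83 ± 0.986 and 2.98 ± 0.554, and *Wnt11* 0.325 ± 0.144 and 0.393 ± 0.137 (SD, n = 4). None of these 3 had an unadjusted p below 0.05 in edgeR. In the 5 smaller libraries *Wnt5b* had a log2 fold change of -0.66 (unadjusted p = 0.00844) and *Wnt11* of 1.12 (unadjusted p = 0.0245), with adjusted p of 0.114 and 0.16. The other 11 ligands did not reach the count filter: *Wnt1*, *Wnt10a*, *Wnt10b*, *Wnt16*, *Wnt2b*, *Wnt3*, *Wnt3a*, *Wnt6*, *Wnt8a*, *Wnt8b* and *Wnt9b* had at most 19 counts in any library. *Wnt8b*, like *Dkk4* among the antagonists, had 0 counts in all 8 libraries, and a count of 0 allows up to 3 counts per library, which is 0.0443 to 0.0778 CPM and covers counting error only.

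**Figure D3:**
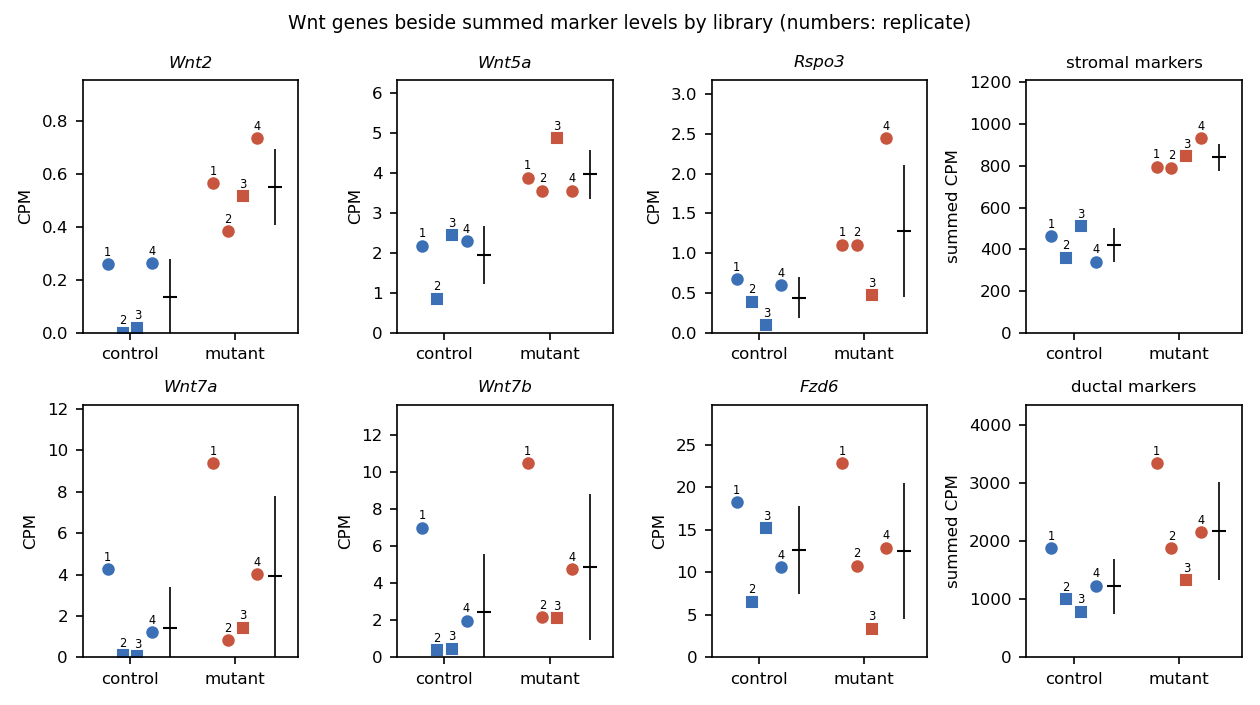
CPM of 6 members in each library beside the summed CPM of fibroblast, stellate cell and pericyte markers (stromal markers) and of ductal markers; digits give the replicate, squares the 3 libraries of over 50 M counts, and the black bars mean ± SD (n = 4), with bars ending at the axis where they would pass below 0. The mutants lie above the controls for *Wnt2*, *Wnt5a* and the stromal markers, and library 1 is the highest of its group for *Wnt7a*, *Wnt7b*, *Fzd6* and the ductal markers.

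Among receptors, *Fzd1* had the highest log2 fold change of the Frizzled and Lrp genes and was the member called with the library division in the model. *Fzd1* encodes a membrane receptor that can signal through β-catenin, and it stood at 17, 3.84, 4.29 and 21.6 CPM in controls 1 to 4 and at 42.4, 61.1, 14.3 and 64.1 CPM in mutants 1 to 4. Within each size class of library the mutants were above the controls: mutant 3 (14.3 CPM) above controls 2 and 3, and mutants 1, 2 and 4 above controls 1 and 4. Over all 8 libraries the groups overlapped, because mutant 3 lay below controls 1 and 4 (exact two-sided permutation test, p = 0.0857). With genotype alone it was higher by 1.96 on the log2 scale (SE 0.67; adjusted p = 0.353 in edgeR and 0.0564 in DESeq2). With the division as a term *Fzd1* rose by 1.63 on the log2 scale (edgeR, adjusted p = 0.0392). That call was kept without mutant 1 (adjusted p = 0.0309) and lost without any of the other 7 libraries (0.107 to 0.203), with log2 fold changes of 1.53 to 1.76 over the 8 fits, and the 5 smaller libraries gave 1.53 (adjusted p = 0.0695). Without controls 2 and 3 it was 1.23 (unadjusted p = 0.0748).

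*Fzd9*, a receptor known in brain and bone, was scarce, at 0.234, 0.186, 0.209 and 0.31 CPM in controls and 0.701, 0.457, 0.355 and 0.427 CPM in mutants. Every mutant was above every control (exact two-sided permutation test, p = 0.0286), with a log2 fold change of 1.04 (SE 0.36), an unadjusted p of 0.0188 and an adjusted p of 0.353 in edgeR. The unadjusted p was 0.069 without mutant 1 and 0.104 without controls 2 and 3. *Fzd3*, which acts in planar cell polarity and was the most abundant Frizzled by CPM, stood at 115, 95.8, 116 and 117 CPM in controls and 111, 111, 81.6 and 106 CPM in mutants. These values overlapped, and the log2 fold change of -0.12 (SE 0.13, adjusted p = 0.673 in edgeR) lies close to 0 and was 0.02 when libraries were scaled by total counts alone.

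The other tested Frizzled genes had an unadjusted p above 0.05 in edgeR with genotype alone and all 8 libraries; for *Fzd2* DESeq2 gave an unadjusted p of 0.0437 and an adjusted p of 0.28. Mean CPM in controls and mutants was 20.8 ± 8.53 and 21.3 ± 3.15 for *Fzd4*, 23.7 ± 3.45 and 30.1 ± 8.31 for *Fzd5*, 12.7 ± 5.14 and 12.5 ± 8.03 for *Fzd6*, 13.9 ± 4.16 and 20.4 ± 4.81 for *Fzd7*, 17 ± 2.92 and 16.4 ± 2.81 for *Fzd8*, and 0.664 ± 0.432 and 1.52 ± 0.545 for *Fzd2* (SD, n = 4). In the 5 smaller libraries *Fzd5* (log2 fold change 0.36, unadjusted p = 0.00597) and *Fzd7* (0.52, unadjusted p = 0.00958) had adjusted p of 0.108 and 0.119 in edgeR. *Fzd10* had at most 6 counts in any library and was not tested.

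The Frizzled genes were also compared as shares of their sum. *Fzd1* made up 10.7, 2.85, 3.88 and 14.1% of the summed CPM per kb of the 10 Frizzled genes in controls 1 to 4 and 21.0, 29.8, 13.1 and 30.6% in mutants 1 to 4, and control 4 lay above mutant 3. By mean CPM per kb it ranked 7 of 10 in controls and 1 in mutants, and *Fzd3* ranked 1 in controls (24.5 to 36.2%) and 2 in mutants (17.4 to 25.6%). These ranks are of group means and were not tested, and in mutants the shares of *Fzd1* and *Fzd3* overlapped. The sum over the 10 genes was 31.8 ± 4.96 CPM per kb in controls and 41.4 ± 10.9 in mutants (SD, n = 4), with mutant 3 at 25.1 and the other mutants at 46.1 to 47.8.

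*Lrp5* and *Lrp6* encode the co-receptors that Wnt brings together with a Frizzled. *Lrp5* stood at 63.3, 30.8, 53.2 and 67.3 CPM in controls 1 to 4 and at 119, 99.6, 79.6 and 112 CPM in mutants 1 to 4. The groups did not overlap (exact two-sided permutation test, p = 0.0286), and the lowest mutant was again mutant 3. *Lrp5* rose in mutants by DESeq2, with a log2 fold change of 0.92 (adjusted p = 0.0302), whereas edgeR gave 0.93 (SE 0.24) with an unadjusted p of 0.00418 and an adjusted p of 0.353. The DESeq2 call was lost without control 3 (adjusted p = 0.106), mutant 1 (0.199), mutant 2 (0.134) or mutant 4 (0.165) and kept without each of the other 4 libraries (0.00859 to 0.0188), with log2 fold changes of 0.74 to 1.05 over the 8 fits. The log2 fold change was 0.81 with the division as a term (edgeR, adjusted p = 0.143), 0.75 within the 5 smaller libraries (adjusted p = 0.0679) and 0.65 without controls 2 and 3 (adjusted p = 0.526). The stromal markers given above and the ductal markers (median log2 fold change 1.02, with 7 of 9 means higher) were higher in mutants alongside *Lrp5* and *Fzd1*, and their part in these genes was not tested.

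*Lrp6* stood at 198, 158, 193 and 190 CPM in controls and 200, 189, 144 and 191 CPM in mutants, a log2 fold change of -0.03 (SE 0.13, adjusted p = 0.936 in edgeR). Control 2 and mutant 3 were the lowest libraries of their groups. *Lrp5* therefore made up 24.1 to 36.6% of the summed CPM per kb of the 2 co-receptors in controls and 46.2 to 49.3% in mutants, without overlap. In mutants the co-receptors were at 17.1 ± 2.87 (*Lrp5*) and 18.6 ± 2.57 CPM per kb (*Lrp6*), and in controls at 8.98 ± 2.73 and 19 ± 1.86 CPM per kb (SD, n = 4).

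**Figure D4:**
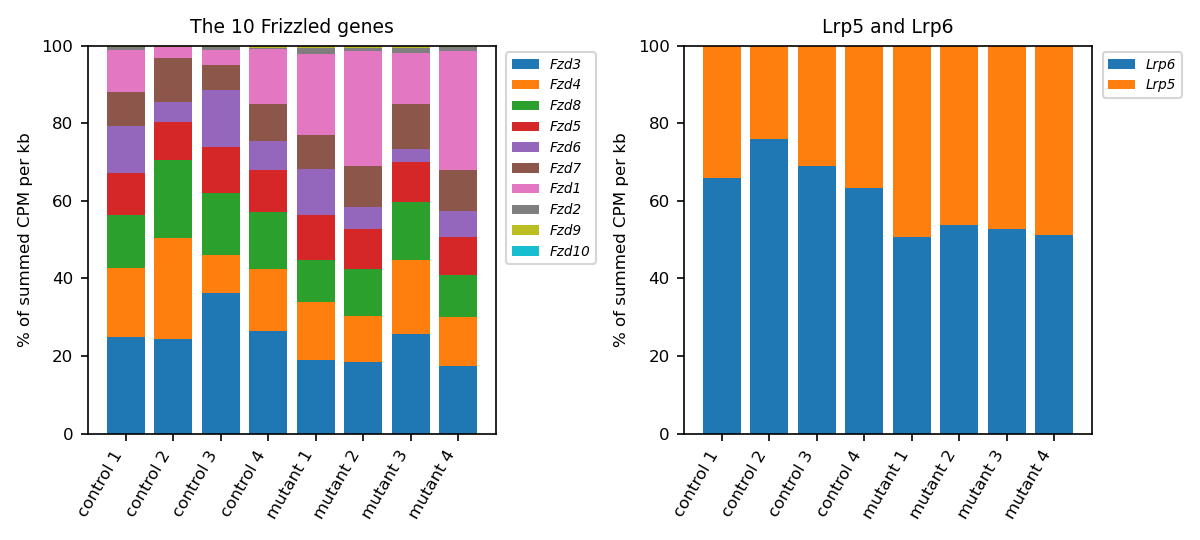
Share of each Frizzled gene in the summed CPM per kb of the 10 Frizzled genes (left) and of *Lrp5* and *Lrp6* in their sum (right), per library, as stacked bars in percent. The *Fzd1* segment is 2.85 to 14.1% in controls and 13.1 to 30.6% in mutants, and *Lrp5* reaches 46.2 to 49.3% in mutants against 24.1 to 36.6% in controls.

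*Sfrp5*, an inhibitor that captures Wnts outside the cell, was the most abundant of the Sfrp and Dickkopf genes. It stood at 31.2, 31.8, 94.1 and 26.8 CPM in controls 1 to 4 and at 15.9, 21.5, 36.3 and 10.3 CPM in mutants 1 to 4. Control 3 was the highest library and mutant 3 the highest mutant, and only mutant 3 reached the range of the controls. A log2 fold change of -1.13 (SE 0.50) had an unadjusted p of 0.0525 and an adjusted p of 0.377 in edgeR; in DESeq2 these were 0.0197 and 0.2. With the library division in the model it was -0.84 (edgeR, unadjusted p = 0.0493, adjusted 0.344). Within the 5 smaller libraries it was -0.87 (edgeR, unadjusted p = 0.026, adjusted 0.164), and without controls 2 and 3 -0.47 (unadjusted p = 0.346, adjusted 0.782). Its unadjusted p in edgeR fell below 0.05 without control 1 (0.0467), control 4 (0.037) or mutant 3 (0.019). That p stayed above 0.05 without any other library, up to 0.213 without control 3, where the log2 fold change was -0.51. *Sfrp5* and *Wnt4* were each highest in control 3 among controls and in mutant 3 among mutants. Summed β-cell markers were also highest in control 3 (173273 CPM) and mutant 3 (49376 CPM). Summed α-cell markers were highest in control 3 (92825 CPM) and mutant 2 (20137 CPM). The part of these cells in the *Sfrp5* values was not tested.

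The other Sfrp and Dickkopf genes were low. *Sfrp1* had 5.37 ± 0.859 CPM in controls and 4.46 ± 0.5 in mutants, and *Sfrp2* 0.205 ± 0.158 and 0.298 ± 0.208 (SD, n = 4). *Dkk3*, a divergent Dickkopf not known to block Lrp co-receptors as the others do, stood at 2.15, 8.52, 3.33 and 5.91 CPM in controls and 4.95, 3.71, 1.79 and 5.38 CPM in mutants. Its libraries overlapped, with a log2 fold change of -0.33 (SE 0.48, adjusted p = 0.763 in edgeR) that was 0.21 in the 5 smaller libraries and 0.06 without control 2. *Dkk2* had 3.95 CPM in control 3 and 0.691 to 1.7 CPM in the other libraries. Its log2 fold change in edgeR was -0.35 (unadjusted p = 0.556) over all 8 libraries. Within the 5 smaller libraries it was 0.88 (edgeR, unadjusted p = 0.0251, adjusted 0.162). *Dkk1*, *Dkk4* and *Dkkl1* had at most 16 counts in any library, *Sfrp4* at most 21, and none was tested.

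R-spondins and their receptors gave 2 members at an unadjusted p below 0.05, at low levels. *Rspo3*, a stromal R-spondin in several organs, stood at 0.675, 0.39, 0.095 and 0.596 CPM in controls and 1.11, 1.11, 0.473 and 2.44 CPM in mutants. Mutant 3 lay within the controls and the other mutants above them (log2 fold change 1.55, SE 0.66, unadjusted p = 0.0435, adjusted p = 0.367 in edgeR). That unadjusted p was above 0.05 without any library other than control 1 or mutant 3 (0.0528 to 0.15). The summed stromal markers given above were higher in mutants too. Control 3 had the highest sum among controls (510 CPM) and the lowest *Rspo3*, and mutant 3 (845 CPM) was above every control in that sum. Mutant 4 had the highest sum (932 CPM) and the highest *Rspo3* of all libraries. The part of stromal cells in *Rspo3* was not tested. *Lgr6*, a receptor for R-spondins found on stem cells of skin, stood at 0.234, 0.111, 0.076 and 0.262 CPM in controls and 0.362, 0.577, 0.768 and 0.356 CPM in mutants. Its groups did not overlap (exact two-sided permutation test, p = 0.0286), with a log2 fold change of 1.61 (SE 0.50), an adjusted p of 0.353 in edgeR and of 0.151 in DESeq2, and 0.79 (unadjusted p = 0.111) within the 5 smaller libraries.

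*Lgr4*, the abundant R-spondin receptor of these islets, stood at 40.9, 40.1, 49.8 and 41.6 CPM in controls and 44.7, 41.3, 32.5 and 43.9 CPM in mutants. Its log2 fold change of -0.09 (SE 0.13, adjusted p = 0.781 in edgeR) was 0.07 in the 5 smaller libraries, and leaving out each library in turn gave 0.0067 without mutant 3 and negative values otherwise. *Rspo4*, the abundant R-spondin, ranged from 25.2 to 56.3 CPM in controls, with controls 2 and 3 highest, and from 25.7 to 35.8 CPM in mutants. In the 5 smaller libraries *Rspo4* had a log2 fold change of 0.37 (unadjusted p = 0.00533, adjusted 0.106), against -0.30 (unadjusted p = 0.299) over all 8. *Rspo2* had 0.266 to 1.48 CPM in controls and 0 to 0.427 CPM in mutants, and *Lgr5*, a stem cell receptor, 0.209 to 1.54 and 0.271 to 0.553 CPM; neither passed an unadjusted p of 0.05. *Rspo1* had at most 9 counts in any library and was not tested.

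**Figure D5:**
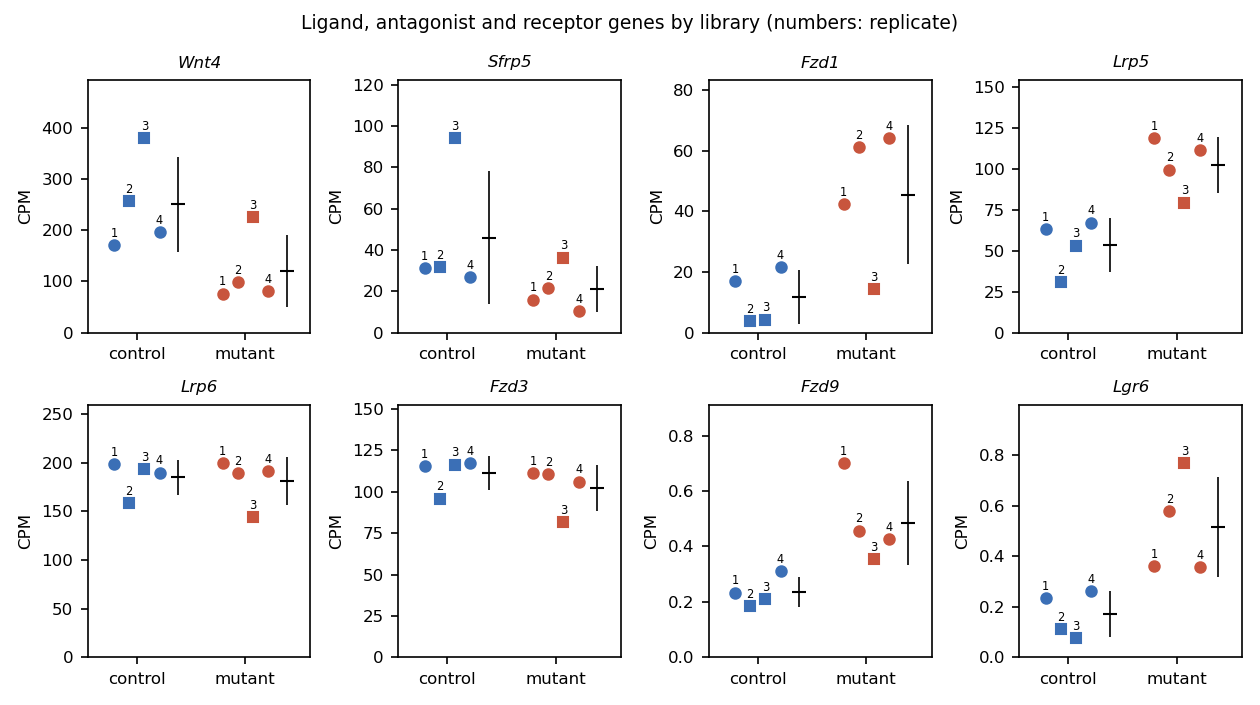
CPM of 8 members in each library, with digits for the replicate, squares for the 3 libraries of over 50 M counts and black bars for mean ± SD (n = 4). Mutant 3 lies with the controls for *Wnt4* (226 CPM) and *Fzd1* (14.3 CPM), and mutants and controls are separate for *Lrp5*, *Fzd9* and *Lgr6*.

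Inside the cell, none of the Axins and TCF/LEF factors had an unadjusted p below 0.05 in edgeR with genotype alone and all 8 libraries. *Axin1*, a scaffold of the complex that destroys β-catenin, stood at 101, 130, 130 and 110 CPM in controls and 97.1, 103, 110 and 96.9 CPM in mutants (log2 fold change -0.21, SE 0.11, adjusted p = 0.427 in edgeR), and its unadjusted p was 0.0369 without control 1. *Axin2*, a gene that β-catenin commonly induces, had 15.1 ± 2.24 CPM in controls and 15.8 ± 3.37 CPM in mutants (SD, n = 4), with a log2 fold change of 0.07 (SE 0.19). *Tcf7l2* stood at 15.8, 12.7, 12.5 and 13.7 CPM in controls and 17.1, 14.7, 6.62 and 14.6 CPM in mutants, with mutant 3 lowest. The difference of -0.04 on the log2 scale (SE 0.27, adjusted p = 0.952 in edgeR) became 0.07 in the 5 smaller libraries, 0.09 with total counts alone and 0.18 without mutant 3. *Tcf7* had 1.12 ± 0.773 and 2.17 ± 0.529 CPM, *Tcf7l1* 6.69 ± 2.86 and 5.3 ± 0.808 CPM, and *Lef1* 0.278 ± 0.175 and 0.43 ± 0.268 CPM in controls and mutants. The spans of *Tcf7l1* and *Lgr5* overlap those of Gm15401 and A930009A15Rik on the opposite strand, where reads likewise cannot be assigned by strand.

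Other genes of the pathway, in lists chosen with earlier results known, gave 0 calls by edgeR at an adjusted p of 0.05 in each of 7 lists. Among 14 tested genes commonly induced by Wnt and β-catenin, of which 4 are members above, 12 had a higher mean in mutants, 2 passed an unadjusted p of 0.05 as higher and 0 as lower, with a median log2 fold change of 0.66 beside 0.0015 over all genes (6.4% of all genes were higher and 6.89% lower at that p). That median was 0.48 with the library division as a term and 0.35 within the 5 smaller libraries. DESeq2 called 2 of them higher (1.22% of all genes), *Wisp1* and *Wisp2*, which encode secreted matrix-associated proteins and which fibroblasts also make. *Wisp2*, with 5 to 11 counts in each control, rose by DESeq2 from 0.182 ± 0.0617 CPM in controls to 1.44 ± 0.931 in mutants, with an edgeR log2 fold change of 2.99 (SE 0.57) and adjusted p of 0.000619 in DESeq2 and 0.256 in edgeR. *Wisp1* rose by DESeq2 from 3.57 ± 2.44 to 15.7 ± 10.6 CPM, with adjusted p of 0.0209 in DESeq2 and 0.353 in edgeR, and mutant 3 had 31.5 CPM where the other mutants had 9.91 to 11.5. The part of stromal cells in these values was not tested.

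Of 6 tested genes of Wnt secretion and transfer 1 was higher at an unadjusted p below 0.05, the heparan sulphate proteoglycan *Sdc1*, which also rose by DESeq2, at 11.2 ± 8.98 CPM in controls and 40.2 ± 6.07 in mutants, with an adjusted p of 0.353 in edgeR and 0.039 in DESeq2. Of 12 other surface antagonists and regulators 1 was higher, *Adgra2*, and 1 lower, the Sfrp-related antagonist *Frzb*, which stood at 191 ± 130 CPM in controls and 79.1 ± 31.8 in mutants (log2 fold change -1.27, unadjusted p = 0.0354, adjusted p = 0.357 in edgeR). *Frzb* was highest in controls 2 and 3, at 266 and 335 CPM, and the estimate was -0.35 within the 5 smaller libraries and -0.05 without controls 2 and 3. Of 4 other Wnt receptors 0 had an unadjusted p below 0.05.

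Of 24 cytoplasmic genes 2 were higher at that level and 3 lower, among them the Dishevelled-binding inhibitor *Nkd2* (1.59 ± 0.777 CPM in controls and 3.98 ± 1.45 in mutants, adjusted p = 0.353 in edgeR and 0.0682 in DESeq2) and *Btrc*, a ubiquitin ligase subunit that marks β-catenin for destruction (104 ± 22.3 and 67.9 ± 10.7 CPM, adjusted p = 0.353 in edgeR and 0.0649 in DESeq2). Of 14 nuclear partners of β-catenin 0 were higher and 1 lower, the co-repressor *Tle2*, and of 17 genes of planar cell polarity 0 were higher and 2 lower, *Prickle1* and *Mapk8*. *Prickle1* had 56.5 ± 24.2 CPM in controls and 28.6 ± 2.12 in mutants, without overlap (3.8% of all genes lay below in this way). Its log2 fold change of -0.98 was -0.31 within the 5 smaller libraries. Medians of these 3 lists were 0.0042, -0.08 and 0.06, beside 0.0015 over all genes, of which 6.4% were higher and 6.89% lower at that p.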

How the data were processed

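Islet RNA of 4 control and 4 *Itgb1* mutant samples was sequenced in single-end reads of 50 bases. The authors trimmed reads with Trimmomatic and FASTP, aligned them to mm10 with STAR and deposited raw counts per gene from featureCounts at default parameters, with each gene's length. GRCm38, STAR, featureCounts and edgeR are listed in the submitters' processing notes. A deposited table of the authors' own comparison (CPM, log2 fold changes, p-values and FDR) was not used.

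Counts were tested with edgeR 4.0.16 in R 4.3.3 (low count filter, TMM factors, quasi-likelihood fit on genotype alone), and p-values were adjusted by Benjamini-Hochberg over 15233 genes; the study corrected batches that the sources used here do not name. SE is the size of the log2 fold change divided by the square root of F. Single values were compared by exact permutation of CPM. Libraries differed pairwise by a chi-square per gene of at least 27.9, so none was present more than once.

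Alternatives were DESeq2 1.42.0, the likelihood ratio test, RLE factors, total counts, no filter, at least 1 CPM in 4 libraries, a replicate block, a term for the division of libraries at 50 M counts, the 5 smaller libraries, leaving out controls 2 and 3, and leaving out each library. Leaving out each library from the *Lrp5* call of DESeq2 and the *Fzd1* call was added after seeing the data. Subsets of libraries kept the genes tested in all 8.

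Members, gene lists and motifs were chosen with earlier results of these data known. Values in every library are given for members at an unadjusted p below 0.05, for members called in any fit over all 8 libraries, and for the most abundant member of each role; in the other lists, up to 3 genes with the smallest p are named. A total of 26 symbols had become dates and 2 symbols occur more than once; none is a member.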

Additional observations from a re-analysis of the deposited data

Results flagged for a closer look

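Within each genotype, single libraries stood far from the other 3 for 8 of 72 sets of 4 libraries (36 members in each genotype), where chance would mark about 1 in 20. In control 3, *Dkk2* (3.95 CPM, the nearest control 1.09), *Lgr4* (49.8, nearest 41.6) and *Sfrp5* (94.1, nearest 31.8) were high, and *Fzd7* (7.73, nearest 15.2) and *Wnt5b* (2.36, nearest 4.27) were low. In control 2, *Fzd3* (95.8 CPM, nearest 115) and *Wnt5a* (0.853, nearest 2.18) were low. In mutant 3, *Wnt4* (226 CPM, nearest 99.1) was high. All 8 marked values were in the 3 libraries of over 50 M counts.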

How the results depend on the processing

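The count of members at an adjusted p below 0.05 was 0 except for 1 with DESeq2 (*Lrp5*) and 1 with the library division term (*Fzd1*). Members higher at an unadjusted p below 0.05 numbered 7, but 3 with at least 1 CPM in 4 libraries, 3 without controls 2 and 3, 12 with the replicate block, and 4 to 11 when each library was left out; over all genes these counts were 975, 877, 678, 1559, and 532 to 1282. Members lower numbered 1, but 2 with DESeq2, with the likelihood ratio test, with no low count filter, with the replicate block and with the library division term, 3 within the 5 smaller libraries, 0 without controls 2 and 3, and 0 to 3 when each library was left out; over all genes they were 1050, but 1329, 974, 1167, 1128 and 946 in the 5 settings with 2, 1616, 601, and 553 to 1519. The median log2 fold change of the members was 0.05, but 0.188 with total counts only, -0.0296 with at least 1 CPM in 4 libraries, 0.10 with the replicate block, 0.0200 with the library division term, 0.284 within the 5 smaller libraries, 0.146 without controls 2 and 3, and 0.031 to 0.208 when each library was left out.

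With total counts only, *Fzd3* (0.0241), *Lgr4* (0.0762), *Lrp6* (0.114) and *Tcf7l2* (0.0911) changed sign, and within the 5 smaller libraries *Dkk3* (0.21), *Lgr4* (0.0670) and *Tcf7l2* (0.0677) did. Leaving out each library gave -0.583 to 0.0572 for *Dkk3*, -0.136 to 0.0067 for *Lgr4*, -0.097 to 0.0659 for *Lrp6* and -0.193 to 0.179 for *Tcf7l2*. The causes were not tested.

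Replicate numbers did not meet the criterion for pairing, which asks for a correlation over 0.1 at every number: deviations from the group means correlated at 0.43, -0.04, 0.43 and 0.22 for numbers 1 to 4, and the libraries numbered 1 and 3 correlated best with their own number, those numbered 2 and 4 with another, for number 4 by 0.2243 against 0.2242. With the replicate block no member was called, and unadjusted p was 0.00017 for *Wnt4*, 0.000881 for *Sfrp5*, 0.00741 for *Wnt7a* and 0.00602 for *Wnt7b* (adjusted p in edgeR 0.121, 0.126, 0.162 and 0.158).

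The deeper set held 2 controls and 1 mutant, so that library set and genotype cannot be told apart in full. Members under 1 CPM in every control, such as *Wnt2*, *Fzd9*, *Lgr6* and *Rspo3*, rest on few counts.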
